A study of Mus musculus with 8 samples.

Results

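p53 and its direct target genes were followed in tumors that grew in mice from a cell line carrying p53DD, a dominant-negative fragment of p53. The genes were taken by name and not by a rule on their values: Trp53, Cdkn1a, Mdm2, Ccng1, Trp53inp1, Sesn2, Gadd45a, Phlda3, Btg2 and Perp. The choice was made with earlier results of these data known. They were represented by 16 of the 22690 probe sets on the array, which name 9 of the 10 genes, out of 12393 genes with a probe set of their own. The annotation used here names no probe set for Trp53, so the level of p53 mRNA was not analysed here. A filter on low signal kept 15 member probe sets of 8 genes and left out the probe set of Perp.

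The study set 3 splenic tumors, called tumors 1, 2 and 3 and each from 1 nude mouse, against the parental cells, with 2 Affymetrix arrays for every tumor and 2 for the parental cells. The parental cells were FL5.12, a mouse pro-B line that needs interleukin-3 to grow, with stable transgenes for Bfl-1DC and p53DD, and the tumors arose after these cells were injected into a vein. The injected cells thus carried both transgenes, but transgene expression in the tumors was not analysed here. The design holds no FL5.12 cells without p53DD. The labels do not say whether the transfected line was 1 clone, and they attach the culture protocol of the line to all samples, so culture of tumor cells before RNA isolation is not settled. A nude host lacks a thymus but keeps myeloid cells, B cells and natural killer cells, none of which carry p53DD. The question for these genes was whether their expression in the tumors was below, at or above that of the parental cells.

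p53 is a transcription factor that is held low by the ubiquitin ligase Mdm2 and accumulates after DNA damage or oncogene activity. It binds DNA as a tetramer and switches on genes for cell cycle arrest, repair, metabolic restraint and apoptosis, and Mdm2 is itself a target, which closes a feedback loop. p53DD holds the oligomerisation domain without the DNA-binding domain, forms mixed tetramers with full-length p53 and so interferes with target activation. In lymphoid cells p53 is best known for driving apoptosis and arrest after DNA damage.

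The element that p53 binds is made of a pair of 10-base half-sites, named the p53 half-site consensus. The promoters of Cdkn1a and Ccng1 are shown because they held the pairs with the fewest mismatches among the members and because a Ccng1 probe set was among the 3 profiles closest to Cdkn1a over the arrays. Each run is the 250 bases before the RefSeq start site in GRCm38.p6, read 5′ to 3′ on the gene's strand. Both runs held 2 pairs within the limits given below, and capitals mark only the pair with the fewest mismatches. In Cdkn1a the other pair is GAACATGTCT with the 10 bases that follow it directly, which are left in lower case.
Cdkn1a promoter, chr17:29090729-29090978, plus strand: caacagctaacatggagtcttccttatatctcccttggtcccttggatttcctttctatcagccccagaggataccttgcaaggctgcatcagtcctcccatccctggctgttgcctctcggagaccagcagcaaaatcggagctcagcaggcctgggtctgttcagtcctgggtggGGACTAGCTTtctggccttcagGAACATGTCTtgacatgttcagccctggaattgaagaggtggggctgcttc
Ccng1 promoter, chr11:40755287-40755536, minus strand: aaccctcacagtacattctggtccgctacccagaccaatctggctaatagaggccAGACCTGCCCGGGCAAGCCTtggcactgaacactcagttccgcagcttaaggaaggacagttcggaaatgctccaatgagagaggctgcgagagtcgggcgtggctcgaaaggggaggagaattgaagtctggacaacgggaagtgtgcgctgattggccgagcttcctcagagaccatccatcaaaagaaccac
In Cdkn1a the half-sites GGACTAGCTT and GAACATGTCT began 73 and 51 bases before the start, with a spacer of 12 bases and 0 mismatches to the consensus. In Ccng1 the pair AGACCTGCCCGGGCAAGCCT began 195 bases before the start, with a spacer of 0 and 1 mismatch. RefSeq promoter entries were found for 7 of the genes with a probe set, 8 entries in all, and Perp and Trp53inp1 had no entry. Cdkn1a had 2 entries, the one shown and another at chr17:29093519-29093768 with 0 half-sites and 0 pairs. A perfect half-site on either strand stood in 4 of the 8 entries (Cdkn1a, Ccng1, Mdm2 and Gadd45a), against 7.13% of 32841 mouse promoters. A pair with at most 2 mismatches in 20 bases and a spacer of at most 13 bases stood in 3 (Cdkn1a, Ccng1 and Gadd45a), against 3.34%. A match is only a match of letters in this window.

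All arrays had the same trimmed mean signal of 150.06, and their median signals lay between 32.4 and 37.9. The neutrophil markers, 10 of 12 past the filter, summed to 3823 to 10370 in tumors against 261 to 814 in parental cells, and the eosinophil markers, 2 of 4, to 3615 to 7929 against 24.9 to 28.2. The macrophage and monocyte sum, 9 of 14, was 867 to 4975 in tumors against 201 to 916 in parental cells. The T-cell sum, 2 of 9, was 871 to 2601 in tumors against 64.1 to 81.9 in parental cells with Cd3g and Cd3d past the filter, while Cd3e, Cd4, Cd8a and Cd5 did not pass the filter. Of the markers that define the labelled pro-B type, Pax5, Ebf1, Rag1, Rag2, Vpreb1, Dntt, Il7r and Blnk did not pass the filter. The sum of the pro-B list, 5 of 13 past the filter, was 478 to 705 in tumors and 244 to 252 in parental cells. In such bulk RNA, fewer cells of a type and less RNA per cell cannot be told apart, and the part of host cells in the values below was not tested. Separate cultures behind the 2 parental arrays are not stated in the labels, so p-values measure only the spread between these samples, which on that side may be technical.

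Expression of the p53 targets in the tumors ranged from slightly below to moderately above the parental level, and no member was called in either direction. Of the 15 member probe sets, 0 passed limma's test of the 3 tumors against the parental cells (Benjamini-Hochberg adjusted p under 0.05, over 14897 probe sets), where 0.698% of all probe sets did. At an unadjusted p under 0.05 there was 1, in Trp53inp1, a share to be read against 15.5% of all probe sets. The fitted change, tumor minus parental on the log2(signal + 16) scale, was above 0 for 14 of the 15, against 51.1% of all probe sets, with a median of 0.33 against 0.0079 for all. Without the filter the median was 0.28 over all 16 and 0.034 over all probe sets. Probe sets of 1 gene share their transcript, so the 15 are not independent of each other. The log2 means of all 3 tumors lay above both parental arrays for 4 of the 15 (Trp53inp1 1416927_at, Ccng1 1420827_a_at, Ccng1 1450017_at and Phlda3), against 18.4% of all probe sets, and below both for 0, against 15.8%. The intervals were wide, from -0.32 to 0.98 for the stronger probe set of Cdkn1a.

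**Figure D1:**
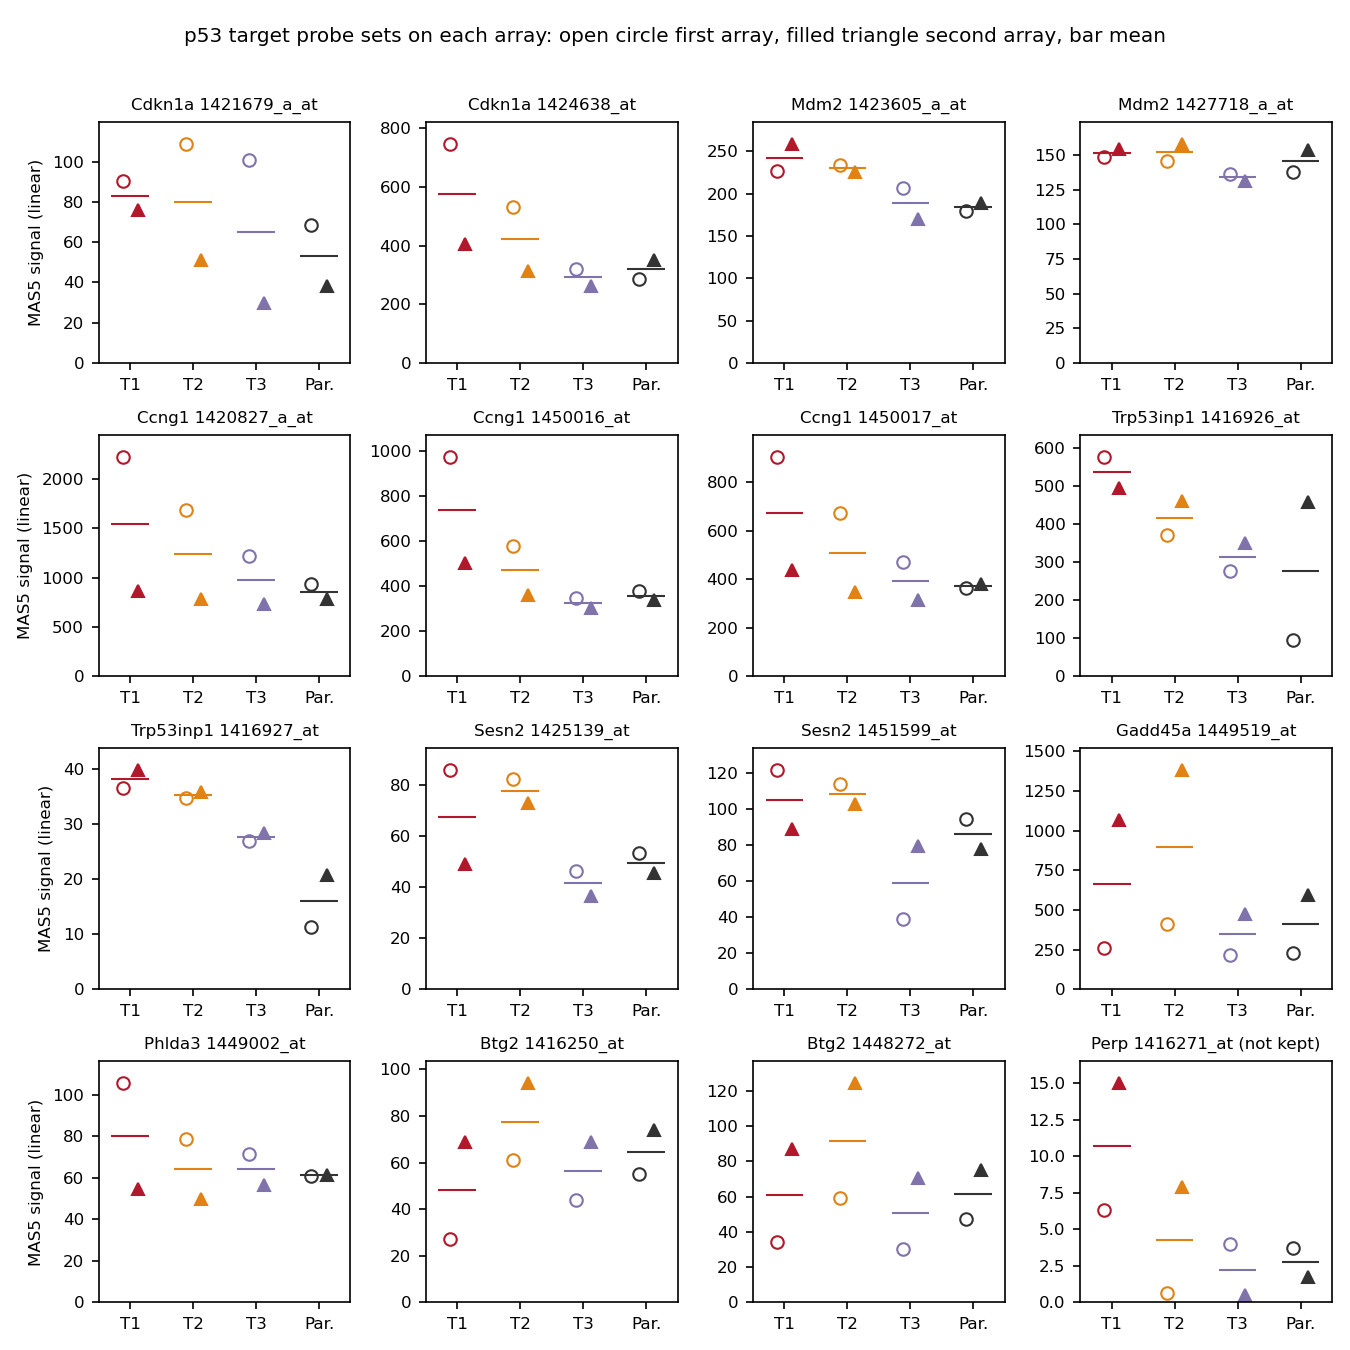
MAS5 signal (linear scale, from 0) of the 16 member probe sets on each array, for tumors 1, 2 and 3 (T1, T2, T3) and parental cells (Par.), with array 1 as an open circle, array 2 as a filled triangle and their mean as a bar. For Trp53inp1 1416927_at all 6 tumor arrays lie above both parental arrays, and for the other kept probe sets the tumor and parental arrays overlap.

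Mdm2 encodes the ubiquitin ligase that marks p53 for destruction. Its probe set 1423605_a_at, on a gene of chromosome 10, read 227 and 259 (tumor 1), 234 and 226 (tumor 2) and 207 and 170 (tumor 3), against 180 and 189 in parental cells. Tumors 1 and 2 lay above both parental arrays on every array, and tumor 3 straddled them. The change was 0.23 ± 0.17 (SE; 3 tumors, 2 parental arrays; limma adjusted p = 0.563), with a 95% interval of -0.18 to 0.64. The other probe set, 1427718_a_at, read 149 and 154, 146 and 158, and 137 and 132 in tumors 1, 2 and 3, against 138 and 154 in parental cells. Its groups overlapped, and the change was 0.0022 ± 0.16 (limma adjusted p = 0.997).

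Ccng1, encoding cyclin G1, which brings a phosphatase to Mdm2 and is itself induced by p53, had 3 probe sets on chromosome 11. The strongest, 1420827_a_at, read 2224 and 867 (tumor 1), 1691 and 784 (tumor 2) and 1220 and 730 (tumor 3), against 931 and 781 in parental cells. In each tumor the array numbered 1 exceeded both parental arrays, and the array numbered 2 lay within or below the parental range. The change was 0.42 ± 0.21 (limma adjusted p = 0.389; 95% interval -0.075 to 0.92). Probe set 1450017_at read 904 and 439 (tumor 1), 672 and 346 (tumor 2) and 471 and 312 (tumor 3), against 362 and 380 in parental cells, a change of 0.39 ± 0.23 (limma adjusted p = 0.457). Probe set 1450016_at read 974 and 501, 578 and 362, and 346 and 303 in tumors 1, 2 and 3, against 377 and 337 in parental cells, a change of 0.39 ± 0.31 (limma adjusted p = 0.589). All 3 probe sets put tumor 1 highest and tumor 3 lowest among the tumors.

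Cdkn1a encodes p21, the inhibitor of cyclin-dependent kinases through which p53 stops the cell cycle, and lies on chromosome 17. Its stronger probe set, 1424638_at, read 746 and 405 (tumor 1), 533 and 314 (tumor 2) and 321 and 263 (tumor 3), against 287 and 352 in parental cells. Both arrays of tumor 1 exceeded the parental arrays, whereas tumors 2 and 3 overlapped them. The change was 0.33 ± 0.27 (limma adjusted p = 0.607). The weaker probe set, 1421679_a_at, read 90.3 and 75.9, 109 and 51.0, and 101 and 29.9 in tumors 1, 2 and 3, against 68.5 and 38.2 in parental cells. The groups overlapped, and the change was 0.36 ± 0.24 (limma adjusted p = 0.518; 95% interval -0.22 to 0.94).

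Gadd45a, a growth-arrest protein induced by DNA damage and encoded on chromosome 6, read 258 and 1067 (tumor 1), 414 and 1380 (tumor 2) and 216 and 477 (tumor 3), against 229 and 592 in parental cells. In every source, parental cells included, the array numbered 2 was the higher one. The change between groups was 0.44 ± 0.47 (limma adjusted p = 0.699; 95% interval -0.67 to 1.55). Btg2, an antiproliferative partner of the mRNA deadenylation machinery on chromosome 1, was the gene with the one negative change. Its probe set 1416250_at read 27.4 and 68.7 (tumor 1), 61.1 and 94.1 (tumor 2) and 43.8 and 69.0 (tumor 3), against 55.2 and 74.2 in parental cells, a change of -0.12 ± 0.23 (limma adjusted p = 0.836). Probe set 1448272_at read 34.5 and 87.3, 59.1 and 124, and 30.6 and 70.7 in tumors 1, 2 and 3, against 47.5 and 75.4 in parental cells, a change of 0.031 ± 0.26 (limma adjusted p = 0.972). For both probe sets the parental arrays fell inside the range of the tumor arrays.

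Trp53inp1, a stress protein of p53-dependent death and autophagy encoded on chromosome 4, had 2 probe sets. Its weak probe set 1416927_at read 36.6 and 39.8 (tumor 1), 34.8 and 35.8 (tumor 2) and 27.0 and 28.5 (tumor 3), against 11.2 and 20.7 in parental cells. The groups did not overlap: all 6 tumor arrays lay above both parental arrays, which held for 1 of the 15 members and for 9.35% of all probe sets. The change was 0.65 ± 0.20 (unadjusted p = 0.0141, limma adjusted p = 0.204; 95% interval 0.18 to 1.12). At this low signal the size depended on the pseudocount, at 1.08 with 1 and 0.29 with 64, and the parental array numbered 1 lay below its 40th percentile of 15.96. The stronger probe set, 1416926_at, read 575 and 494 (tumor 1), 370 and 459 (tumor 2) and 276 and 350 (tumor 3), against 94.1 and 457 in parental cells. Its parental arrays were far apart, and the array numbered 1 alone stood below all tumor arrays. The change was 0.90 ± 0.57 (limma adjusted p = 0.497; 95% interval -0.47 to 2.27); without the parental array numbered 1 it was -0.15, and without the one numbered 2 it was 1.95.

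Sesn2, a sestrin that restrains mTORC1 under stress, is also encoded on chromosome 4. Its probe set 1425139_at read 86.0 and 49.0 (tumor 1), 82.5 and 73.0 (tumor 2) and 46.5 and 36.6 (tumor 3), against 53.5 and 45.6 in parental cells, a change of 0.21 ± 0.24 (limma adjusted p = 0.709). Probe set 1451599_at read 121 and 88.5, 114 and 103, and 38.7 and 79.1 in tumors 1, 2 and 3, against 94.4 and 77.4 in parental cells, a change of 0.010 ± 0.27 (limma adjusted p = 0.991). In both, tumor 2 lay above the parental arrays and tumor 3 had the lowest single reading. Phlda3, a pleckstrin-homology protein that holds back Akt, read 106 and 54.6, 78.8 and 49.8, and 71.3 and 56.8 in tumors 1, 2 and 3, against 61.0 and 61.4 in parental cells, a change of 0.11 ± 0.16 (limma adjusted p = 0.776). In each tumor 1 array lay above and 1 below the parental pair. Perp, a desmosomal membrane protein that serves as a death effector of p53, was not above the 40th percentile of signal on any of the 8 arrays: its signals were 0.493 to 14.98 in tumors, against 1.74 and 3.75 in parental cells.

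**Figure D2:**
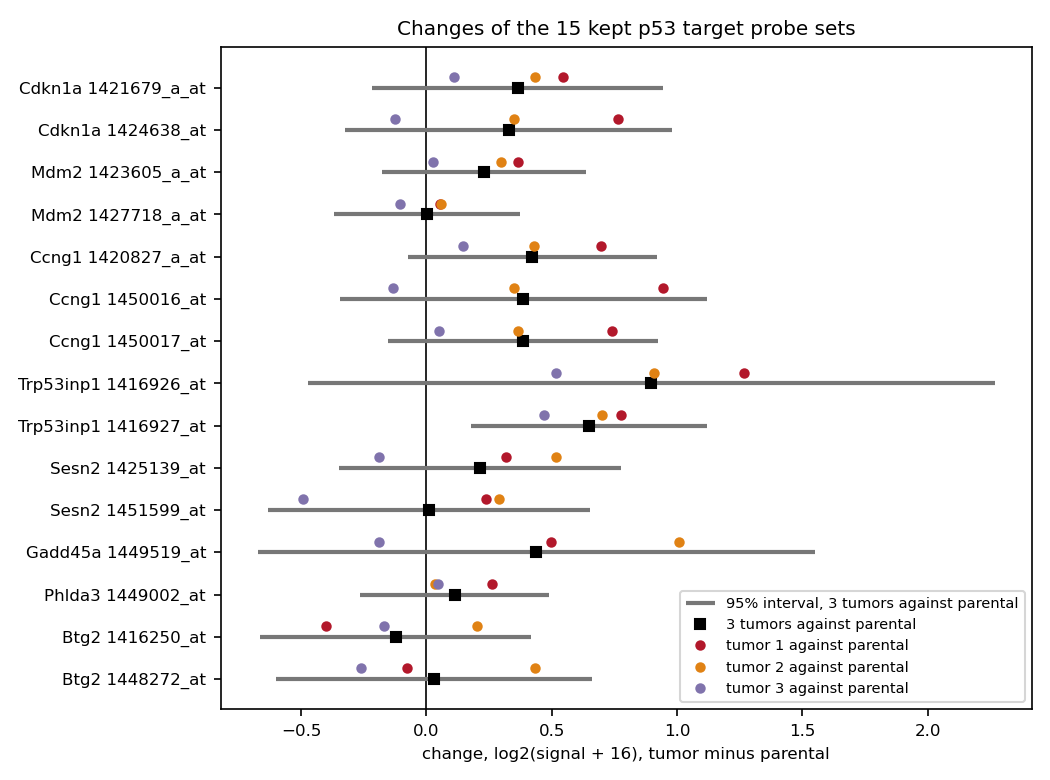
Change of each member probe set, tumor minus parental, on the log2(signal + 16) scale, with its 95% interval and the change of each tumor alone. Of the 15 changes 14 lie above 0, and the interval excludes 0 for Trp53inp1 1416927_at alone.

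Most member probe sets read lowest in tumor 3 among the tumors. This was noticed after the values were seen and is a description with no test. Tumor 3 had the lowest of the 3 log2 means for 13 of the 15 probe sets, against 33.3% of all probe sets. Tumor 1 lay above tumor 2 and tumor 2 above tumor 3 for 8, against 18.4%, and for 6 this held on both array numbers, against 5.89%; those 6 were 1 of Cdkn1a (1424638_at), the 3 of Ccng1 and both of Trp53inp1. The median change of the 15 was 0.50 in tumor 1, 0.37 in tumor 2 and -0.11 in tumor 3, where the medians of all probe sets were -0.0032, 0.026 and 0.0048. In tumor 3 the changes ran from -0.49 for Sesn2 1451599_at to 0.52 for Trp53inp1 1416926_at, with Cdkn1a 1424638_at at -0.12.

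Each tumor was also tested alone against the parental cells, in a fit whose spread is that between duplicate arrays of a source and leaves out the spread between mice. There limma called 0 of the 15 in tumors 1, 2 and 3, while 2, 1 and 1 had an unadjusted p under 0.05, against 18.5%, 12.5% and 14.8% of all probe sets. Of all probe sets 2.92% were called in tumor 1, 1.28% in tumor 2 and 2.13% in tumor 3. The F test among the 3 tumors called 0 of the 15, against 1.26% of all, and 2 had an unadjusted p under 0.05, against 11.7% of all. The array numbers pair the arrays, and with the replicate number as a block limma called 2 members in tumor 1, 2 in tumor 2 and 0 in tumor 3, all higher than in parental cells. The shares of all probe sets called higher in that fit were 6.89%, 3.5% and 5.22%, and of all called in either direction 13.8%, 5.46% and 9.1%. The F test with the block called 0, against 5.28% of all.

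Of these calls, Trp53inp1 1416927_at was called in tumors 1 and 2. Its change was 0.78 ± 0.16 in tumor 1 (limma adjusted p = 0.0229 with the block, 0.0229 to 0.316 over the alternatives) and 0.70 ± 0.16 in tumor 2 (0.0498 with the block, 0.0498 to 0.503 over the alternatives). In tumor 3 it was 0.47 ± 0.16 (limma adjusted p = 0.112 with the block). Ccng1 1450016_at was called in tumor 1, at 0.94 ± 0.22 (limma adjusted p = 0.0343 with the block, 0.0343 to 0.421 over the alternatives). Gadd45a was called in tumor 2, at 1.01 ± 0.22 (limma adjusted p = 0.0498 with the block, 0.0498 to 0.956 over the alternatives). Without the parental array numbered 2, and without the block, Trp53inp1 1416926_at was the 1 member called in tumor 1 (limma adjusted p = 0.0192) and in tumor 2 (0.0398), and without the parental array numbered 1 its values there were 0.781 and 0.929.

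**Figure D3:**
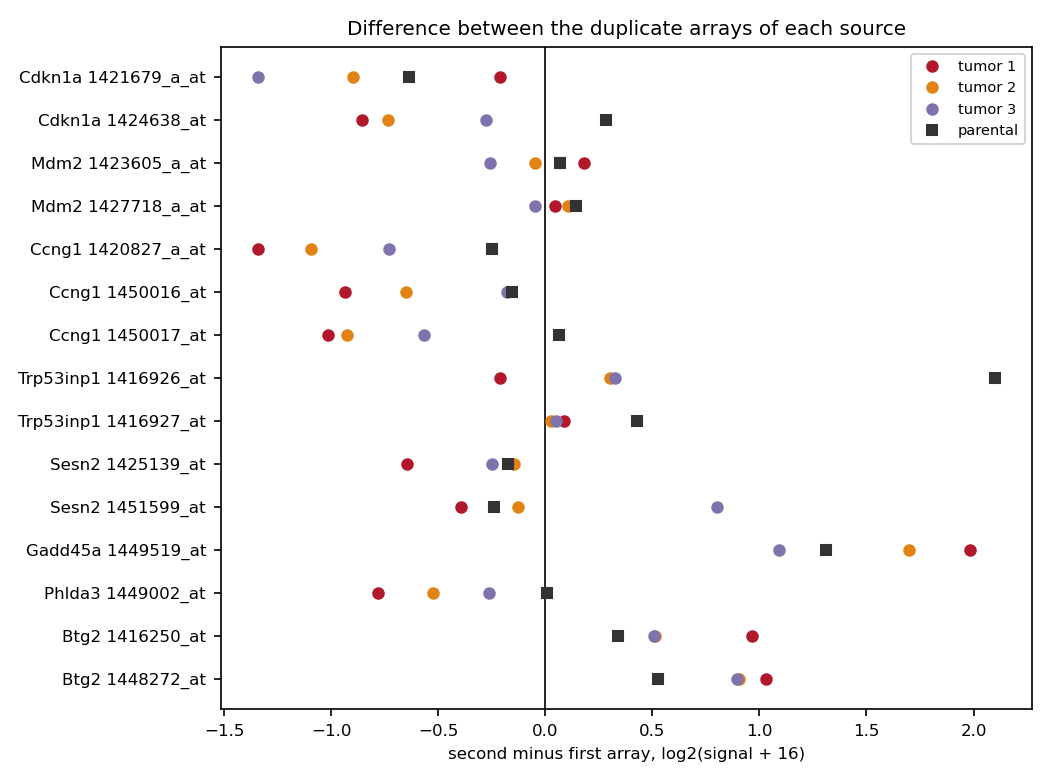
Difference between arrays numbered 2 and 1 of the same source, second minus first, on the log2(signal + 16) scale, for the member probe sets in tumors 1, 2 and 3 and in parental cells. Gadd45a lies above 0 in all 4 sources, and Cdkn1a 1421679_a_at and Ccng1 1420827_a_at lie below 0 in all 4.

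Gadd45a, Btg2, Ccng1 and Cdkn1a each had a probe set that differed between the 2 array numbers of a source, and by more than its fitted change between tumors and parental cells. In the blocked fit the difference of second minus first array was called for 5 of the 15 members, where 17.4% of all probe sets were called (7.63% higher and 9.79% lower on the second arrays). Gadd45a was higher on the second arrays by 1.52 ± 0.16 (limma adjusted p = 0.00654), and Btg2 by 0.84 ± 0.12 on 1448272_at (0.0105) and by 0.58 on 1416250_at (0.0259). Ccng1 1420827_a_at was lower on the second arrays, at -0.85 ± 0.18 (limma adjusted p = 0.0243), as was Cdkn1a 1421679_a_at, at -0.77 ± 0.18 (0.0307). The Gadd45a difference was present in the parental cells as well, at 592 on the second array against 229 on the first. What the 2 numbers stand for is not given in the labels. The summed neutrophil markers of the tumors were 5733 to 10370 on second arrays and 3823 to 4909 on first arrays, the macrophage and monocyte sums 2873 to 4975 and 867 to 1660, and the 3′ to 5′ ratio of the Actb control 1.06 to 1.14 and 1.18 to 1.25; their part in the members' differences was not tested.

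The comparison was therefore also made within each number, 3 tumor arrays against the 1 parental array of that number, an analysis added after seeing the data in which the lone parental array is assumed to vary like the tumors. The member median was 0.13 on the second arrays and 0.38 on the first, where the medians of all probe sets were 0.017 and -0.0029. All 3 tumor arrays exceeded the parental array for 2 of the 15 members on the second arrays (31.2% of all probe sets) and for 8 on the first (28%). limma called 0 members on either (0.0806% and 0.0336% of all probe sets), with 0 and 2 at an unadjusted p under 0.05 (10.2% and 8.81% of all). The change of Cdkn1a 1424638_at was -0.12 on the second arrays and 0.78 on the first, that of Ccng1 1450017_at -0.066 and 0.84, and that of Trp53inp1 1416926_at -0.084 and 1.88. Trp53inp1 1416927_at kept its sign, at 0.46 and 0.84, as did Gadd45a, at 0.58 and 0.30, among others. The change was above 0 for 10 of the 15 on the second arrays and for 12 on the first, against 51.8% and 49.7% of all probe sets.

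**Figure D4:**
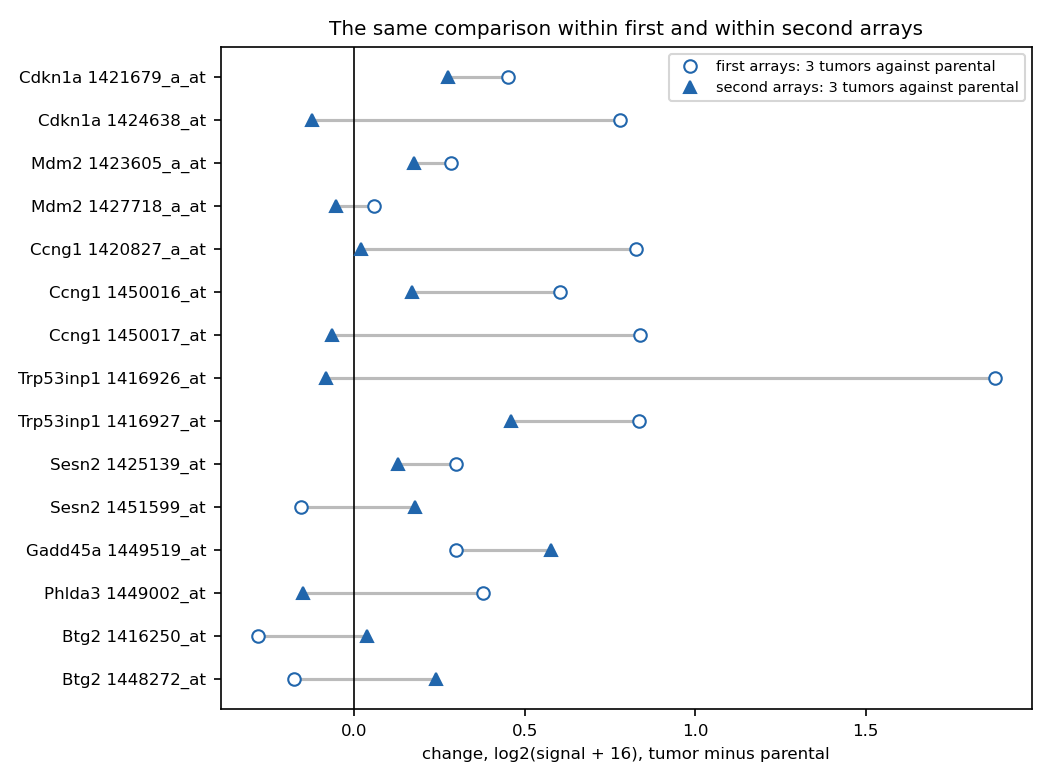
Change of each member probe set, 3 tumors against parental cells on the log2(signal + 16) scale, within the arrays numbered 1 (open circles) and within those numbered 2 (filled triangles). Cdkn1a 1424638_at, Trp53inp1 1416926_at and Ccng1 1450017_at lie well above 0 within number 1 and slightly below 0 within number 2.

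The difference between the second-array and the first-array comparison was tested too. limma called 0 of the 15 members and 0% of all probe sets, while 4 members had an unadjusted p under 0.05, against 5.71% of all. These were Trp53inp1 1416926_at (-1.96, unadjusted p = 0.000619, limma adjusted p = 0.739), Ccng1 1450017_at (-0.90, unadjusted p = 0.0163), Cdkn1a 1424638_at (-0.90, 0.0242) and Ccng1 1420827_a_at (-0.81, 0.0373). For the Cdkn1a and Ccng1 probe sets the array numbered 1 was the higher one in every tumor. For Trp53inp1 1416926_at the array numbered 2 was the higher one in tumors 2 and 3, and its parental arrays were far apart, at 457 on the second and 94.1 on the first.

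The probe sets most like Cdkn1a 1424638_at over the 8 arrays were those of Ptp4a3, Ccng1 (1450017_at) and Skp1, among 13658 candidates of other genes. The measure was the mean absolute difference between standardised profiles, which was 0.126 SD for Ptp4a3, 0.209 SD for Ccng1 and 0.265 SD for Skp1. The 8 arrays come from 4 sources and share the difference between numbers.

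Other p53 targets lay on both sides of the parental level, and 1 was called. A list of 63 other p53 targets had 43 genes that passed the filter, each taken by its kept probe set with the highest mean. Of these, 1 was called higher in tumors and 0 lower, where 0.497% and 0.201% of all probe sets were called, and 20 had a change above 0. Their median change was -0.035, with -0.067 within the second arrays and 0.11 within the first. Among those above 0, Ephx1, Lif and Dapk1 lay below the 40th percentile on both parental arrays. They passed the filter through tumor arrays alone, so the filter favoured a positive change. The 1 called gene was Prkab1, the β1 regulatory subunit of the energy sensor AMPK, in the list of metabolic and stress targets. Its probe set 1424119_at read 137 and 161 (tumor 1), 152 and 261 (tumor 2) and 206 and 271 (tumor 3), against 16.01 and 15.18 in parental cells. All 6 tumor arrays lay far above the parental pair, and the change was 2.72 ± 0.21 (limma adjusted p = 0.00495, 0.00117 to 0.139 over the alternatives). The parental signals lay at the 40th percentiles of their arrays, 15.96 and 15.59, so the size depended on the pseudocount, at 3.53 with 1 and 1.69 with 64. The other probe set, 1452457_a_at, read 78.9 to 143 in tumors, against 2.70 and 3.14 in parental cells, far below those percentiles, and no fold is given. The call was lost without the parental array numbered 1 (0.0822) or 2 (0.113) and within the numbers 1 (0.139) and 2 (0.128), where the change kept its direction.

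Among 16 apoptotic targets 12 passed the filter, 0 were called and the median was 0.024. Zmat3, an RNA-binding zinc-finger protein induced by p53, read 258 and 95.3 (tumor 1), 279 and 112 (tumor 2) and 124 and 109 (tumor 3), against 67.9 and 77.5 in parental cells. All 6 tumor arrays exceeded the parental pair, at 0.90 ± 0.21 (limma adjusted p = 0.130). Casp1, the inflammasome caspase, had a change of 1.99 (limma adjusted p = 0.177). The tumors had higher neutrophil sums. Over all arrays their macrophage and monocyte sums overlapped those of parental cells, at 867 to 4975 against 201 to 916, but within an array number they did not. Tumor sums were 867 to 1660 against 201 on first arrays, and 2873 to 4975 against 916 on second arrays. Of the 9 macrophage and monocyte markers kept, 4 were called higher in tumors and 0 lower. The part of these cells in the Casp1 change was not tested. The death agonist Bid had a change of -0.65 (limma adjusted p = 0.156).

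Among 10 cell cycle targets 6 passed the filter, 0 were called and 0 had a change above 0, with a median of -0.24. The phosphatase genes Ptprv and Ppm1d, of which Ppm1d switches off p53 signalling, had changes of -0.38 (limma adjusted p = 0.325) and -0.24 (0.486), and cyclin K (Ccnk) one of -0.31 (0.691). DNA repair targets, 9 kept of 10, had a median of -0.045 and 0 calls. Their lowest p-values were those of the Fanconi anaemia gene Fancc (-0.51, limma adjusted p = 0.235), whose other probe set went the opposite way at 0.59, the excision nuclease gene Ercc5 (-0.32, 0.402) and the translesion polymerase gene Polk (-0.090, 0.823). That other Fancc probe set read 5.73 and 3.76 in parental cells and passed the filter through tumor arrays alone. Metabolic and stress targets, 7 kept of 12, had a median of -0.14. Next to Prkab1 they held Ddit4 and Tsc2, both restraints on mTORC1, at -0.73 (limma adjusted p = 0.365) and -0.31 (0.477). Targets with other roles, 9 kept of 15, had a median of 0.18 and 0 calls, with the epoxide hydrolase gene Ephx1 at 0.59 (limma adjusted p = 0.360), the nuclear body gene Pml at 0.35 (0.633) and the tetraspanin gene Cd82 at 0.31 (0.593). Ephx1 read 2.75 and 2.06 in parental cells and passed the filter through tumor arrays alone, so the filter favoured a positive change.

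**Figure D5:**
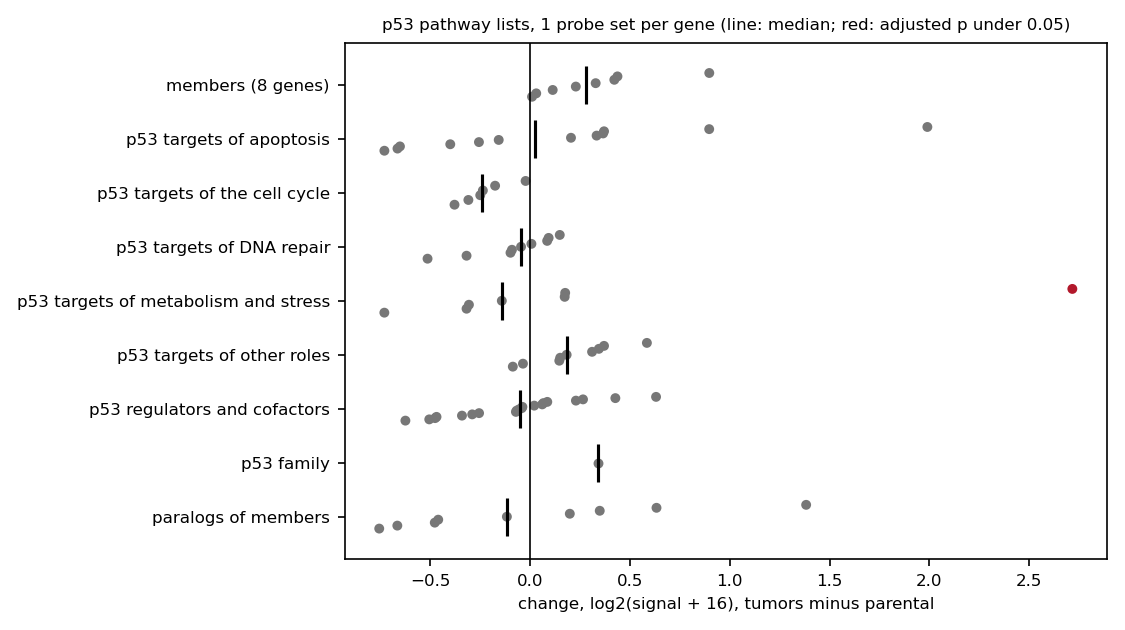
Changes of the kept genes of each p53 list, tumor minus parental, on the log2(signal + 16) scale, 1 point per gene, with the median of each list as a line and adjusted p under 0.05 in red. The 8 member genes, each by its kept probe set with the highest mean, have a median of 0.28 and all lie above 0. Sesn2 (0.010) and Btg2 (0.031) lie close to 0, and the other Btg2 probe set, not drawn, is at -0.12. The lists of other targets have medians of -0.24 to 0.18, and Prkab1 stands apart at 2.72.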

How the data were processed

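RNA from 3 splenic tumors and from parental FL5.12 cells was measured on the Affymetrix Mouse Genome 430A 2.0, with 2 arrays per source. The deposited values are intensities on a linear scale, 1 per probe set, made with MAS5 per the submitters' processing notes, which give no version or settings. The number of arrays limits the precision.

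Names came from the platform annotation (20380 probe sets with 1 symbol, 691 with several, 1555 with none), updated to RefSeq GRCm38.p6, and 64 control probe sets were left out. Values were log2(signal + 16), a scale that understates changes of low signals, with no further normalization. Probe sets above the 40th percentile of an array on at least 2 of 8 arrays were analysed (14897). limma 3.58.1 in R 4.3.3 compared the mean of each tumor's 2 arrays (3 values) with the 2 parental arrays, two-sided, with Benjamini-Hochberg adjustment at 0.05 over all of these probe sets. Single tumors used all 8 arrays with a mean per source (4 residual degrees of freedom). The scripts were tested on simulated data.

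Arrays carry the number 1 or 2 in the labels. For each pair of sources, deviations of arrays with the same number went together (correlation 0.434 to 0.594), so the numbers pair the arrays, and blocked fits were added to the alternatives. Further alternatives changed the pseudocount (1 or 64), the filter (none or the 60th percentile), the normalization (quantile or median), the use of duplicate arrays and the samples included.

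The members and gene lists were chosen with earlier results of these data known. All member probe sets are named, and of each other list the called genes or else up to 3 with the lowest p. The genes most like Cdkn1a are the 3 nearest profiles.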

Additional observations from a re-analysis of the deposited data

How the results depend on the processing

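No member probe set was called in the comparison of the 3 tumors with parental cells under any alternative run, and the members' median stayed between 0.057 and 0.49. The number of all probe sets called, 104, was 45 with a pseudocount of 64, 22 without a filter, 66 with 1 probe set per gene, 193 with all 8 arrays and source as a random block, 62 with tumor arrays of number 1 only, 9 to 94 when a sample was left out (16 without parental replicate 1, 9 without parental replicate 2), and 5 and 12 within numbers 1 and 2. The median of other targets, -0.035, was 0.090 without cross-hybridising probe set types, 0.021 with tumor arrays of number 1 only, -0.064 to 0.024 when a sample was left out (0.018 without tumor 1, 0.024 without tumor 3) and 0.11 within number 1; the cause was not tested. The replicate block gave 2 member calls in tumor 1 and 2 in tumor 2, and leaving out a sample gave 0 to 1 in each. In the blocked fit of all 8 arrays with source as a random block, the changes were as without the block (Cdkn1a 1424638_at 0.33 ± 0.38, adjusted p 0.764), and it changed no other member call.

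Fitted changes of 11 member probe sets took the other sign under some alternatives, and the cause was not tested. Sesn2 1451599_at gave -0.0037 with a pseudocount of 1, -0.0087 after quantile normalization, -0.036 with number 1 only and -0.16 within number 1, and -0.13 to 0.26 over left-out samples. Btg2 1448272_at gave -0.0062 after quantile normalization, -0.44 with number 1 only and -0.18 within number 1, and -0.23 to 0.29 over left-out samples. Mdm2 1427718_a_at gave -0.00036 after median centring, -0.015 with number 1 only and -0.053 within number 2, and -0.070 to 0.075 over left-out samples. Gadd45a gave -0.36 with number 1 only and -0.22 to 1.09 over left-out samples. Trp53inp1 1416926_at gave -0.15 to 1.95 over left-out samples and -0.084 within number 2. With tumor arrays of number 2 only, Cdkn1a 1421679_a_at gave -0.045, Ccng1 1420827_a_at -0.11, Ccng1 1450017_at -0.033, Phlda3 -0.15 and Btg2 1416250_at 0.21. Within number 2, Cdkn1a 1424638_at gave -0.12, Ccng1 1450017_at -0.066, Phlda3 -0.15 and Btg2 1416250_at 0.037, and the last ran from -0.29 to 0.047 over left-out samples.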

Other observations

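Genes that act on p53, and relatives of the target genes, were read in the same fit of the 3 tumors against parental cells. Of 26 regulators of p53, 20 passed the filter, 0 were called by limma and 8 had a change above 0, with a median of -0.048. The lowest p-values belonged to the DNA-dependent protein kinase gene Prkdc (-0.62, limma adjusted p = 0.225), the kinase gene Hipk2 (0.63, 0.269) and the acetyltransferase gene Crebbp (-0.48, 0.324). Of the 2 other p53 family genes, Trp73 passed the filter and had a change of 0.34 (limma adjusted p = 0.426). Trp73 read 6.88 and 9.65 in parental cells and passed through tumor arrays alone, so the filter favoured a positive change.

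Of 15 paralogs of the target genes 9 passed the filter, with 0 called and a median of -0.12. Trp53inp2, the paralog of Trp53inp1, had a change of 1.38 (limma adjusted p = 0.137), Ccng2, the paralog of Ccng1, one of -0.66 (0.261) and Tob2, a relative of Btg2, one of -0.46 (0.222). The parental arrays of Trp53inp2 were far apart, at 1.89 and 19.6, the first below its 40th percentile of 15.96, so the size of its change is uncertain.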
